A study of Mus musculus with 6 samples.

Results

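The 3 libraries of mouse dermal fibroblasts that the labels give as knockout for the nuclear receptor RORγ (RORγ-/-) were compared by sterol, the library treated with 20(OH)7DHC against the mean of the libraries treated with 20(OH)L3 and 20(OH)Cholesterol. The members are the genes measured there, 7902 rows with a single symbol and a mean of at least 5 FPKM (fragments scaled by transcript length and by library depth) over these 3 libraries, of 46958 rows in the table. The rule used the level of a gene and not its difference. Of the members 7677 were located in the GENCODE M21 annotation, 7097 were protein-coding, 224 had no transcript of 300 nt or more, and 24 carried a repeated symbol. In 309 members the mean of the other sterols was under 5 FPKM, so these entered through the 20(OH)7DHC library. Ddx58, Hoxb3 and Pparg below are among them. In 423 members the 20(OH)7DHC value was under 5 FPKM, so these entered through the other sterols. Tmem121 and Itpkb lay just inside the minimum of 5 FPKM and Ahi1 and Eps8l2 just outside it. The study holds 6 libraries, 1 for each of 2 genotypes and 3 sterols, so no group has a replicate. Cells came from the dermis of mice 1 to 2 days old, were pooled over mice, used at early passage, and treated at 100 nM for 24 h in 0.1% ethanol with 10% charcoal-stripped serum. The comparison group is wild type (RORγ+/+) under the same 3 sterols, and no library treated with ethanol alone was analysed here. The labels give the knockout as RORγ-/- animals and name no Cre line. The labels do not say that cultures were repeated, so every p below measures the spread between single libraries.

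Each of these sterols carries a hydroxyl group on its side chain. 20(OH)Cholesterol is hydroxylated cholesterol, 20(OH)7DHC is hydroxylated 7-dehydrocholesterol, which has an additional double bond in its ring system, and 20(OH)L3 is hydroxylated lumisterol, a stereoisomer of the latter. RORγ is a nuclear receptor that binds sterols in its ligand pocket and activates transcription, and it is best known from lymphocytes that make interleukin 17. Dermal fibroblasts make collagen and other matrix, and after inflammatory signals they make chemokines and acute-phase proteins.

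Fibroblast markers summed to 7630, 9966 and 10330 FPKM in the knockout-labelled libraries of 20(OH)L3, then 20(OH)Cholesterol, then 20(OH)7DHC, an order kept below, and none of the 13 measured was at 0. Endothelial markers summed to at most 4.91 FPKM. Keratinocyte and cornified envelope markers summed to 241.5, 355.1 and 94.5 FPKM, against 48.1 to 67.7 in wild type. Of the 21 measured, 10 were under 1 FPKM in all knockout-labelled libraries, 3 of them at 0. Most of the sum came from S100a7a (93.1, 47.4 and 21.7 FPKM), Sfn (38.9, 116 and 18.3 FPKM) and Lce1h (52.9, 75.8 and 16.8 FPKM). Skeletal muscle markers summed to 74.4, 51.0 and 17.1 FPKM, against 9.80 to 15.5 in wild type. Most of that sum was Mylpf (51.6, 14.1 and 6.67 FPKM) and Tnnt2 (18.75, 30.0 and 8.71 FPKM). Of the 10 muscle markers measured, 5 were under 1 FPKM in all knockout-labelled libraries. Pericyte markers summed to 76.5, 48.2 and 114.9 FPKM against 18.9 to 22.3, the highest with 20(OH)7DHC, and adipocyte markers to 766, 803 and 594 FPKM against 220.5 to 279.5. Most of the pericyte sum was the single gene Mcam, at 69.9, 42.4 and 108 FPKM. Of the 7 pericyte markers measured, 4 were under 1 FPKM in all knockout-labelled libraries. Most of the adipocyte sum was the single gene Plin2, at 653, 712 and 496 FPKM. Depth, estimated from the step between low values, was 9000000, 7700000 and 13300000 fragments in the knockout-labelled libraries and 12500000 to 13100000 in wild type. A single fragment then adds 0.0749 to 0.130 FPKM to a gene of 1 kb. Fewer cells of a type and less RNA per cell cannot be told apart in such bulk samples.

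In the knockout-labelled cells the 20(OH)7DHC library differed widely from the other libraries of its label, and its levels lay nearer to wild type than theirs did. Of the members, 89.4% were within 1 log2 unit of the wild-type mean with 20(OH)7DHC, against 68.6% with 20(OH)L3 and 73.7% with 20(OH)Cholesterol. Across members, which are not independent replicates, Pearson's r of log2(FPKM + 1) with the wild-type mean was 0.869 with 20(OH)7DHC, 0.790 with 20(OH)L3 and 0.824 with 20(OH)Cholesterol. The libraries with 20(OH)L3 and 20(OH)Cholesterol were most like each other, at 0.898. The difference between 20(OH)7DHC and the mean of the other sterols, on the log2(FPKM + 1) scale used for all differences here, had a median of -0.13 and ran from -1.60 at the 5th to 1.11 at the 95th percentile. Among wild-type libraries the same difference over the same genes had a median of 0.01 and ran from -0.33 to 0.29. The gap between 20(OH)L3 and 20(OH)Cholesterol in the knockout-labelled cells had a median of 0.29 and a 95th percentile of 1.16. The log2(FPKM + 1) scale understates changes of low genes.

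A difference of at least 2-fold (1 log2 unit) from each of the other knockout-labelled libraries was found for 294 members in the higher and 853 in the lower direction, against 4.81% and 8.18% of the 12673 rows whose mean over the 6 libraries was 1 FPKM or more. As shares of the members these are 3.72% and 10.8%, so the lower share is somewhat above that of all rows and the higher share is not. With 20(OH)L3 as the library set against the other sterols, 160 members were higher and 88 lower, and with 20(OH)Cholesterol 154 and 69. In wild type the 20(OH)7DHC library gave 29 and 16. Of the 294 higher members, 117 had a mean of the other sterols under 5 FPKM and entered the members only through the 20(OH)7DHC library, where they had to be high, and the higher count is no support by itself. Cox15, Msmp, Mxra8os, Apol7d, 1810049J17Rik, BC037039, Gm12473 and Gm26457 below are of this kind. So are the short RNAs Gm25357, Mir7027, Mir6944 and Gm26175. The 423 members under 5 FPKM with 20(OH)7DHC entered only through the other sterols and had to read lower with 20(OH)7DHC. Among them are Saa3, Ccl20, U90926, Bcl3, Psmb8, C3, Rn7sk, Crct1, Gm34342, Cdc20, Ccna2, Rfc4 and Cox7a1 below. The lower count is therefore no support by itself either. Of the 294, 208 were within 1 log2 unit of the wild-type mean in the 20(OH)7DHC library, 76 were above it and 10 below. Of the 853 lower members, 758 were within 1 log2 unit of the wild-type mean, 33 above it and 62 below. After quantile normalization the counts were 369 higher and 454 lower, so the excess of lower members depends in part on the scaling.

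The limma fit, which takes its spread from the difference between 20(OH)L3 and 20(OH)Cholesterol within each genotype, called 45 members higher and 10 lower at an adjusted p under 0.05. The background was 0.584% of 12673 rows higher and 0.0947% lower. Of these 55 members, 42 were annotated RNAs under 300 nt, where a few fragments give a high FPKM, and 59 members listed at 0 with both other sterols have no spread there. Among single-symbol rows of at least 300 nt the same fit called 228 members higher and 731 lower, against a background of 2.73% higher and 6.69% lower of 11157 rows. Unadjusted, 3722 of the 12673 rows had a p under 0.05. Fitted to the knockout-labelled libraries alone, which leaves 1 residual degree of freedom, limma called 0 members, with 1518 at an unadjusted p under 0.05. It also called 0 without the wild-type library of 20(OH)L3 or of 20(OH)Cholesterol, with 1554 and 1552 at an unadjusted p under 0.05. With 1 library per sterol, no p here can tell a sterol from a library.

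The direction of the difference followed transcript length. Among 543 members of 300 to under 1000 nt, the median difference was -1.14, and 238 were at least 2-fold below both other libraries while 21 were above. The median was -0.59 among 1423 members of 1 to under 2 kb and -0.09 among 3147 of 2 to under 4 kb. It was 0.22 among 1592 members of 4 to under 6 kb and 0.32 among 748 of 6 kb and over, where 67 were at least 2-fold higher and 34 lower. In wild type no length class had a median beyond -0.03 or 0.02. Spearman's correlation of the difference with length across members of at least 300 nt was 0.473 in the knockout-labelled cells and 0.114 in wild type. Against each library separately the medians of the class under 1000 nt were -1.26 (20(OH)L3) and -1.01 (20(OH)Cholesterol), and those of 6 kb and over were 0.36 and 0.28. Within that shortest class, the median ran from -0.87 in transcripts with under 45% GC to -1.20 in those of 55% and over.

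**Figure D1:**
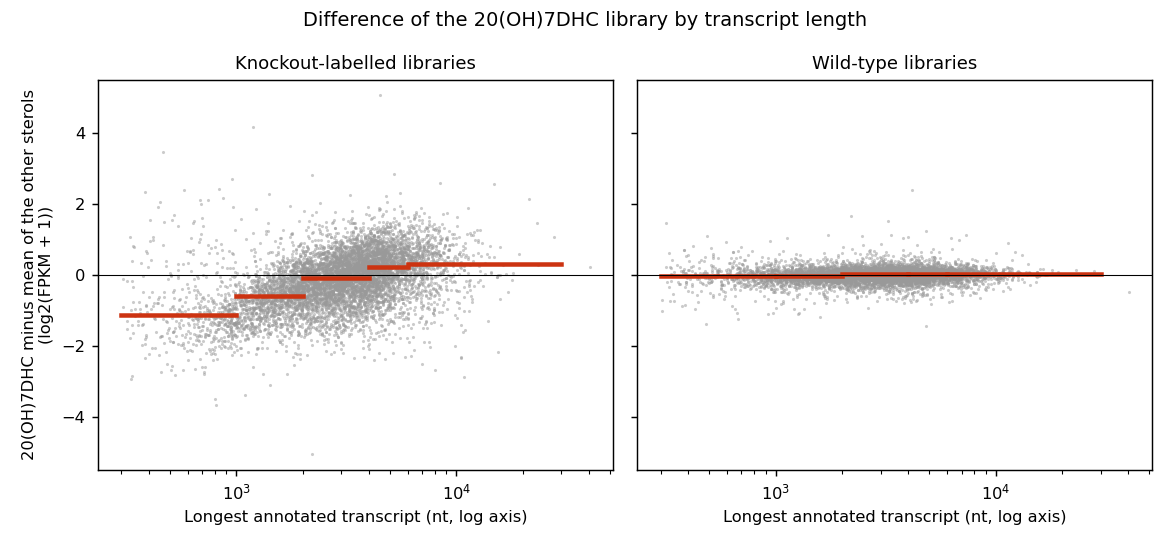
Difference of the 20(OH)7DHC library from the mean of the other sterols (log2(FPKM + 1), vertical axis) against the longest annotated transcript (nt, log axis) for members of at least 300 nt, in the knockout-labelled (left) and wild-type (right) libraries. Grey points are genes and red lines are medians per length class, which climb from -1.14 to 0.32 on the left and stay near 0 on the right.

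It was the libraries with 20(OH)L3 and 20(OH)Cholesterol, not the one with 20(OH)7DHC, whose levels departed from wild type by length. In the class of 300 to under 1000 nt their medians stood 1.30 and 1.02 above the wild-type mean, while that of the 20(OH)7DHC library stood 0.09 above it. In the class of 6 kb and over the same medians were -0.23, -0.17 and 0.11. Depth was also lower in those libraries, at 9000000 and 7700000 fragments against 13300000, and its part was not tested. With 1 library each, sterol and library cannot be told apart. Length was therefore taken into account by setting each gene's difference against the median of members of like length, in 20 groups of equal size. On that measure, chosen after seeing the data, 231 members were at least 2-fold higher and 342 lower, and 134 and 276 of these were also so without it. Length was that of the longest annotated transcript of a gene, which need not be the one expressed, so the matching is approximate.

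**Figure D2:**
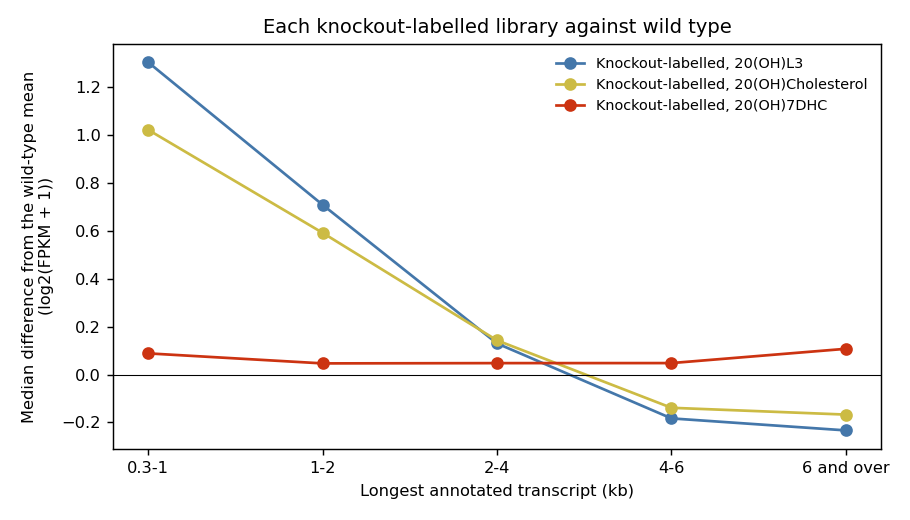
Median difference of each knockout-labelled library from the mean of the wild-type libraries (log2(FPKM + 1)) by length class of the longest annotated transcript (kb), 1 line per sterol. The lines for 20(OH)L3 and 20(OH)Cholesterol run from 1.30 and 1.02 in the shortest class to -0.23 and -0.17 in the longest, and the line for 20(OH)7DHC stays between 0.05 and 0.11.

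The member with the largest positive difference of at least 300 nt was Fbxw7 (chromosome 3, 84815268 to 84979198, GRCm38), the substrate-binding subunit of a ubiquitin ligase that marks cyclin E and MYC for destruction. It read 9.63, 8.22 and 331 FPKM in the knockout-labelled libraries, and 6.36, 6.71 and 6.48 FPKM in wild type. The single library with 20(OH)7DHC stood far above the other 5, which lay close together. Fbxw7 rose by a log2 difference of 5.07 (SE 0.18, limma adjusted p = 0.0111), and by 4.85 against members of like length. How fragments are shared between its isoforms or with short RNAs inside it is not visible in a value per gene.

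Wac, an adaptor in histone H2B ubiquitination, read 8.77, 7.30 and 63.9 FPKM, against 47.2 to 56.8 in wild type. Its log2 difference of 2.85 (SE 0.21) passed the limma test at an adjusted p of 0.046. Here the 20(OH)7DHC library lay with wild type, and the other knockout-labelled libraries lay below all of these. The same arrangement held for Cnot1, the scaffold of the CCR4-NOT deadenylase, at 5.91, 8.33 and 47.0 FPKM against 30.0 to 37.4 in wild type. Fat1, an atypical cadherin, read 34.1, 48.3 and 244.8 FPKM against 159 to 179 in wild type. Cox15, which makes heme A for cytochrome oxidase, read 1.27, 2.63 and 12.5 FPKM against 13.8 to 17.7. Hnrnpf and Hnrnpr, RNA-binding proteins of splicing, had log2 differences of 2.03 and 2.14, and Hnrnpf reached 43.3 FPKM against 41.5 to 46.0 in wild type. The adjusted p of Cnot1, Fat1, Cox15, Hnrnpf and Hnrnpr lay between 0.054 and 0.076 over all rows and at 0.031 to 0.032 over rows of at least 300 nt.

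Apol7d, which the annotation gives as an antisense transcript on chromosome 1, read 1.06, 2.34 and 46.2 FPKM, with 15.7 to 25.4 in wild type. It overlaps the start of Fn1, and since strand is not stated, the fragments of the pair cannot be told apart, and the same applies to Mxra8os at 2.95, 1.33 and 12.2 FPKM. Ston1, an endocytic adaptor, read 18.4, 6.79 and 57.7 FPKM, and the secreted protein gene Msmp read 4.27, 0.477 and 10.96 FPKM, so that in both the other sterols differed from each other by more than 2-fold. Gga3, a clathrin adaptor of the Golgi, read 6.70, 6.69 and 31.0 FPKM in the knockout-labelled cells and 4.35, 6.09 and 13.6 FPKM in wild type. It was the highest with 20(OH)7DHC in both genotypes.

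The member with the largest negative difference of at least 300 nt was Saa3 (chromosome 7, 46711998 to 46715700), an acute-phase serum amyloid made by fibroblasts and macrophages after inflammatory signals. It read 45.6, 35.6 and 0.258 FPKM, and 6163, 10480 and 5765 FPKM in wild type. The library with 20(OH)7DHC was the lowest of all and lay farther from wild type than the other knockout-labelled libraries, which is the reverse of the arrangement seen for most members. The log2 difference was -5.04 (SE 0.40, limma adjusted p = 0.053 over all rows and 0.031 over rows of at least 300 nt) and -4.78 against members of like length.

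Of the other lower members, Ccl20, a chemokine for CCR6-bearing cells, read 5.79, 12.9 and 0.132 FPKM against 23.5 to 35.5 in wild type. Ccl2 and Ccl7, neighbouring chemokine genes on chromosome 11 that draw monocytes, had log2 differences of -3.38 (SE 1.63) and -3.51 (SE 1.42). Their large errors reflect the gap between the other sterols, since Ccl2 read 53.3, 657 and 17.1 FPKM and Ccl7 read 81.9, 724 and 20.5 FPKM. U90926 read 3.11, 17.8 and 0.235 FPKM with the 5 other libraries all above 3 FPKM.

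A second set of lower members lay at the wild-type level with 20(OH)7DHC and above it with the other sterols. Atp5e and Ndufa2, small subunits of ATP synthase and of respiratory complex I, read 2989, 2210 and 371 FPKM and 1733, 935 and 196 FPKM, against 314 to 404 and 147 to 197 in wild type. S100a13, a calcium-binding protein, read 504, 357 and 63.4 FPKM against 68.3 to 79.3. Crebbp, a histone acetyltransferase with a transcript of over 10 kb, read 44.3, 54.8 and 5.85 FPKM against 2.79 to 7.73, so this set is not made of short transcripts alone. Klk8, a serine protease of the epidermis, read 165, 354 and 34.2 FPKM against 19.7 to 29.3, alongside the keratinocyte markers above, whose part was not tested. Rpl39l, a near copy of a ribosomal protein gene, and Rn7sk, a small nuclear RNA that restrains transcription elongation, had log2 differences of -3.66 and -2.94, and both are uncertain because copies of them exist in the genome.

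**Figure D3:**
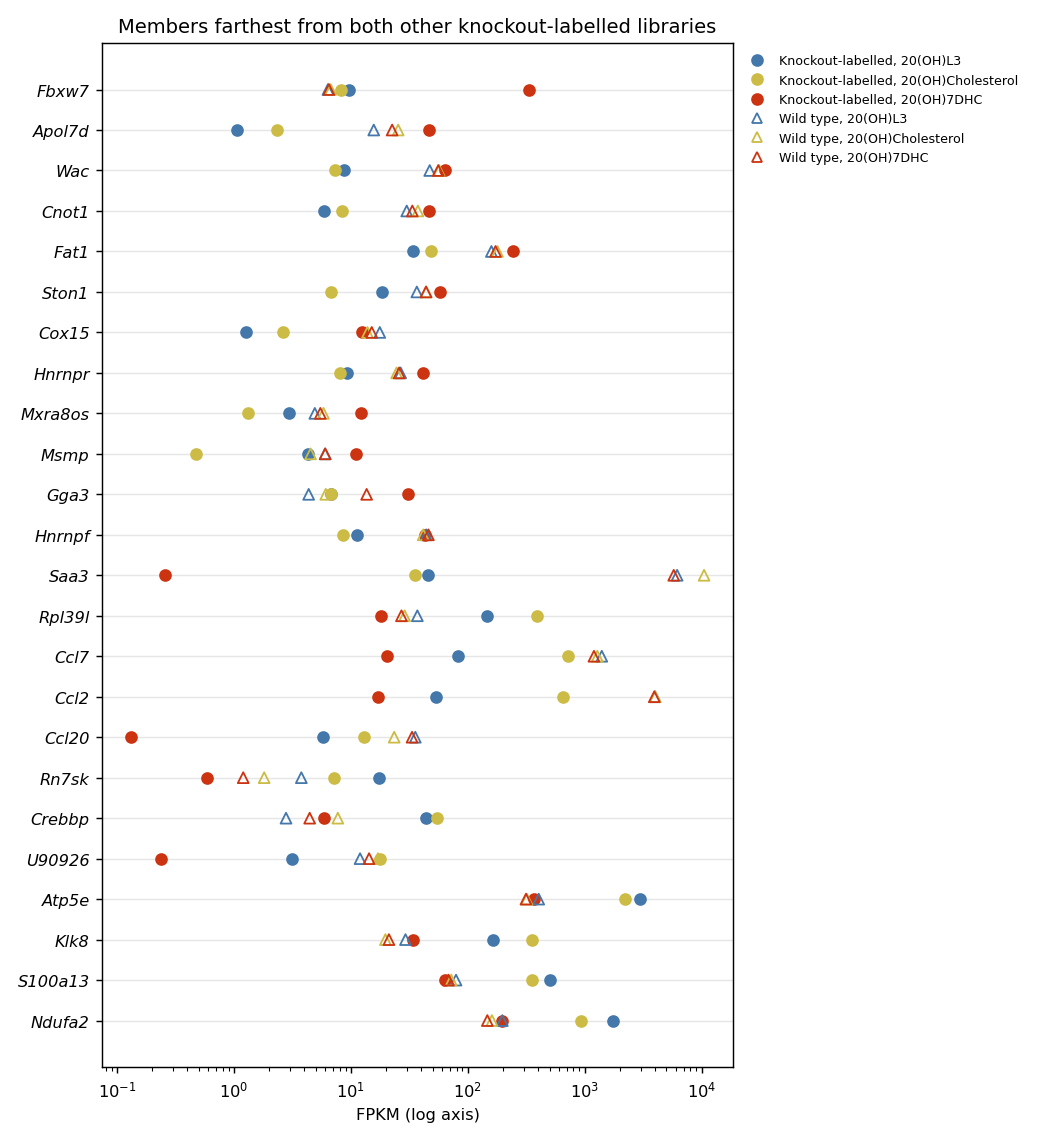
FPKM (log axis) in each of the 6 libraries for the 12 higher and the 12 lower members farthest from both other knockout-labelled libraries. Filled circles are knockout-labelled and open triangles are wild-type libraries, coloured by sterol. The filled red circle of Fbxw7, at 331 FPKM, and those of Saa3 and Ccl20, at 0.258 and 0.132 FPKM, lie far from all other libraries, while most others lie near the triangles.

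The 13 members called over all rows that were not under 300 nt included 6 that rose and 7 that fell. Beside Fbxw7 and Wac, the transcripts 1810049J17Rik, BC037039 and Gm12473 rose, and each lay nearer to wild type with 20(OH)7DHC, as in 1810049J17Rik with 2.97, 3.48 and 45.2 FPKM against 34.5 to 34.6. Gm26457 was listed at 0 in every library except those with 20(OH)7DHC, at 245 FPKM in the knockout-labelled cells and 372 FPKM in wild type, and it has no length in the annotation used. Atox1, a copper chaperone, fell from 983 and 962 to 253 FPKM, with 191 to 213 in wild type. Atp5k, another ATP synthase subunit, fell from 746 and 704 to 185 FPKM, and Rnaseh2c, a subunit of ribonuclease H2, from 667 and 642 to 144 FPKM. Arl6ip4 and the G protein subunit Gng11 fell by 1.72 and 1.85 on the log2 scale. Crct1, a cornified envelope gene, fell from 22.1 and 22.8 to 2.90 FPKM, with 15.3 to 22.5 in wild type. Gm34342, listed at 0 in wild type, fell by 2.85. 1810049J17Rik, BC037039, Gm12473 and Gm26457 entered the members only through the 20(OH)7DHC library, where they had to be high. Crct1 and Gm34342 entered only through the other sterols and had to read lower with 20(OH)7DHC. The direction of these genes is no support by itself.

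Of the members of at least 300 nt, 15 lay at least 2-fold above and 47 at least 2-fold below all 5 other libraries, wild type included, against 0.242% and 0.556% of the 11157 rows of that length. These shares of the 7453 members are close to the background, so the counts show nothing particular to the members. For the knockout-labelled libraries with 20(OH)L3 and 20(OH)Cholesterol the same counts were 82 above with 37 below, and 40 above with 28 below, and for each wild-type library at most 5. The genes named in the next paragraphs from this set were chosen after their values were seen.

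Besides Fbxw7 and Gga3, the higher set held genes of varied roles, among them noncoding or unnamed transcripts such as Gm29585. Plxna1, a semaphorin receptor, read 21.4, 21.7 and 74.9 FPKM, against 26.0 to 27.5 in wild type. Cdh2, which encodes N-cadherin, read 38.4, 36.1 and 107 FPKM against 34.0 to 39.8. Neo1, the netrin receptor neogenin, read 8.60, 7.04 and 20.9 FPKM against 8.54 to 9.38. In all of these the 5 other libraries lay close together and the knockout-labelled 20(OH)7DHC library was alone above them. Dusp4, a phosphatase of MAP kinases, read 23.0, 21.1 and 63.9 FPKM against 15.1 to 18.4. Akap12, a scaffold for protein kinase A, read 73.7, 61.0 and 180 FPKM against 34.1 to 36.9. Slc7a1, a transporter of arginine and lysine, and Col4a2, a chain of basement membrane collagen, read 26.6 and 203 FPKM with 20(OH)7DHC, against at most 11.6 and 96.1 in the other knockout-labelled libraries. The limma adjusted p of Plxna1, Cdh2, Neo1, Dusp4, Akap12, Slc7a1 and Col4a2 ran from 0.053 to 0.073 over all rows, which misses the threshold, and from 0.031 to 0.039 over rows of at least 300 nt.

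From the lower set, Nfkbia, the inhibitor of NF-kB that NF-kB itself induces, read 57.7, 194 and 27.8 FPKM, against 274 to 350 in wild type. Bcl3, an atypical member of the same inhibitor family, read 3.42, 17.7 and 0.966 FPKM against 46.8 to 61.9. Cxcl16, a membrane-bound chemokine, read 20.3, 63.0 and 6.94 FPKM against 119 to 126. In each of these, as in Ccl2 and Ccl7, the order was 20(OH)7DHC lowest, then 20(OH)L3, then 20(OH)Cholesterol, then wild type. Cd40, a costimulatory receptor, read 16.1, 49.1 and 6.82 FPKM with 22.7 to 33.0 in wild type, so that its highest library was knockout-labelled. The adjusted p of Nfkbia, Bcl3, Cxcl16 and Cd40 over rows of at least 300 nt ran from 0.081 to 0.135, none past the threshold.

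**Figure D4:**
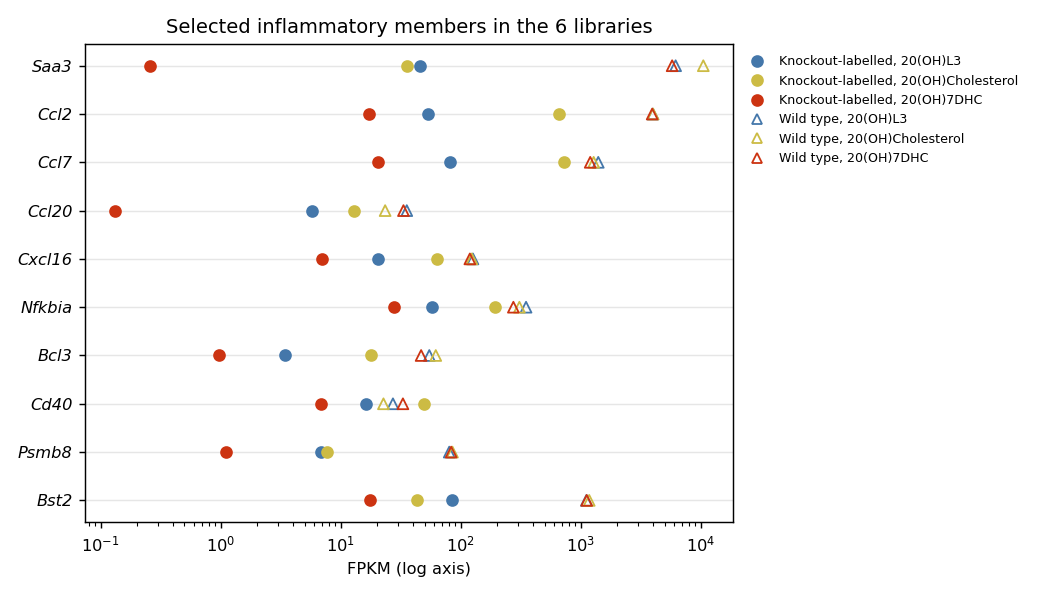
FPKM (log axis) of 10 members with known roles in inflammation or its control in the 6 libraries, filled circles for knockout-labelled and open triangles for wild-type libraries, coloured by sterol. In every one of these 10, chosen after their values were seen, the filled red circle of 20(OH)7DHC is the lowest, from 0.132 FPKM for Ccl20 to 27.8 FPKM for Nfkbia.

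Over all 7902 members 10.8% were past 2-fold lower, 3771 were below both other sterols and 2692 above both. Among the chemokines and cytokines listed, 3 of 9 were so, with a median of -0.33, and 0.11 against members of like length. Of these 9, 4 were below both other sterols and 3 above both, near the shares of all members. Summed over the 20 measured, this list read 893, 2287 and 1429 FPKM in the knockout-labelled libraries, so its sum was not lowest with 20(OH)7DHC. Of 7 interferon response genes 3 were past 2-fold lower, 4 were below both other sterols and 1 above, with medians of -0.21 and 0.22. Of 6 NF-kB feedback genes 1 was past 2-fold lower, 4 were below both and 0 above, with medians of -0.35 and -0.46. The acute phase and complement list held 2 members, Saa3 and the complement component C3, which read 11.5, 4.66 and 2.37 FPKM against 280.5 to 374 in wild type, with a median of -3.18, and -3.16 against members of like length. Nfkb2, an NF-kB subunit, read 15.0, 40.9 and 19.7 FPKM, between the other sterols, and Ddx58, the RNA sensor RIG-I, read 3.82, 5.18 and 6.07 FPKM, above them.

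Proteasome subunits that interferon induces were part of the lower set with smaller errors. Psmb8 read 6.82, 7.69 and 1.10 FPKM, against 80.2 to 85.3 in wild type. Psmb10 read 216, 171 and 45.5 FPKM against 139 to 159, so that the other knockout-labelled libraries were above wild type and the 20(OH)7DHC library below it. Bst2, the antiviral protein tetherin, read 84.1, 43.0 and 17.6 FPKM against 1114 to 1175. Timp1, an inhibitor of matrix metalloproteinases, read 2096, 2132 and 584 FPKM against 2045 to 2220, so that the 5 other libraries were nearly equal. Its log2 difference of -1.85 (SE 0.17) had an adjusted p of 0.061 over all rows and 0.031 over rows of at least 300 nt, but it was -0.78 against members of like length, its transcript being 883 nt long. Thy1, a surface glycoprotein of fibroblasts, read 37.0, 108 and 17.6 FPKM against 192 to 198. Il11ra1, the receptor of interleukin 11, read 123, 106 and 30.3 FPKM against 76.6 to 92.1. Cck, a peptide hormone, read 923, 2995 and 356 FPKM against 1914 to 2051. None of Psmb8, Psmb10, Il11ra1, Bst2, Thy1 and Cck passed limma over all rows. Over rows of at least 300 nt the limma adjusted p was 0.031 for Psmb8, Psmb10 and Il11ra1. For Bst2, Thy1 and Cck it was 0.056, 0.114 and 0.091, none past the threshold.

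The promoters of the genes in the lower set were searched for the NF-kB consensus by name, a motif of 10 bases, on both strands in the 250 bases before each start site in RefSeq on GRCm38. Of the 47 genes, 36 had a window, and 5 of these (13.9%) held a match, Bst2, Ccl20, Ndrg2, Nfkbia and Sdc4, against 4.46% of 27025 genes with a window and 3.90% of 32851 windows. The windows of Ccl20 (chr1:83116516-83116765, plus strand) and Nfkbia (chr12:55492648-55492897, minus strand) are shown because both genes are described above, with the match in capitals. It begins 80 bases before the start site in Ccl20 and 29 bases before it in Nfkbia. The lower set was taken from these same data, and the 27025 genes were not limited to members or matched to them in level. The difference between these shares, which rests on 5 genes, was not tested, and no conclusion is drawn from it. A match in letters is a description and not a bound site.
Ccl20: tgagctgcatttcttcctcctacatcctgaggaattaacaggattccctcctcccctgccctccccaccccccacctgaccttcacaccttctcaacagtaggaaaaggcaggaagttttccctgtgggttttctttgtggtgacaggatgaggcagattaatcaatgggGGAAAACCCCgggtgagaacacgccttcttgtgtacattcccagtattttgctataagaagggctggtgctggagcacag
Nfkbia: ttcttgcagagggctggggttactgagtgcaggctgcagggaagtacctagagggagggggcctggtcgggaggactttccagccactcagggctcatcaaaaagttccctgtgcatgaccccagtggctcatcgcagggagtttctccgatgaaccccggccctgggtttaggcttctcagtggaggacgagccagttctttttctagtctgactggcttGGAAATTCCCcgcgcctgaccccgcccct

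Small and abundant housekeeping transcripts were lower as groups. Over all members, the background for each group here, 10.8% were past 2-fold lower and 3.72% higher. Of the nuclear-encoded subunits of the respiratory chain, 18 of 31 members were at least 2-fold below both other libraries and 0 above. Their median difference was -1.34, against -0.13 over all members. Uqcr10, a subunit of complex III, read 2776, 1377 and 330 FPKM, against 278 to 313 in wild type. Cytosolic ribosomal proteins had 11 of 21 members past 2-fold lower and a median of -1.19, with Rplp1 at 12070, 7550 and 2640 FPKM against 1877 to 2155. Proteasome subunits had 8 of 17 past 2-fold lower and a median of -1.04. Psmb3 read 364, 301 and 120 FPKM, and Psmd4 read 478, 463 and 190 FPKM. In all of these examples wild type lay closest to the 20(OH)7DHC library. The members of these groups are short, with median lengths of 1232, 1151 and 1883 nt, and against members of like length the group medians were -0.53, -0.35 and -0.64. These lengths are of the longest annotated transcript, 1697 nt for Atp5e, so part of the length trend may remain in these medians, which was not tested.

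Of 6 replication-dependent histones, whose messages lack a long poly(A) tail, 4 were at least 2-fold lower, against 10.8% of all members. Their median was -1.58, and -0.47 against members of like length. Hist1h4h read 35.4, 42.5 and 9.44 FPKM against 7.35 to 8.52 in wild type. Malat1, an abundant nuclear RNA of nearly 7 kb and the single member of its list, read 813, 1112 and 164 FPKM against 51.6 to 75.5, a log2 difference of -2.52 (SE 0.25) that was -2.82 against members of like length. Its adjusted p was 0.064 over all rows and 0.031 over rows of at least 300 nt.

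The 9 mitosis genes among the members had a median of -0.83, and -0.63 against members of like length. Of these 9, 8 were below both other sterols and 0 above, against 3771 and 2692 of all 7902 members. Past 2-fold lower was 1, a share near the 10.8% of all members. Cdc20, an activator of the anaphase-promoting complex, read 10.6, 12.6 and 4.26 FPKM, against 16.1 to 18.1 in wild type. Ccna2, which encodes cyclin A, read 8.18, 8.41 and 3.66 FPKM against 14.2 to 15.6. For both genes the 20(OH)7DHC library lay farthest from wild type. Cdc20, Ccna2 and Birc5, another of the 9, were under 5 FPKM with 20(OH)7DHC. They entered only through the other sterols and had to read lower there, so their direction is no support by itself. Genes of DNA replication had a median of -0.38, and -0.25 against members of like length. Below both other sterols were 9 of 15 and above both 4, against 3771 and 2692 of all 7902 members. Past 2-fold lower were 2 of 15, again near the share of all members, among them Rfc4, a clamp loader subunit, at 13.0, 13.1 and 3.71 FPKM. Rfc4 also entered only through the other sterols.

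Matrix glycoproteins and proteoglycans had a median of 0.40 over 20 members, and 0.15 against members of like length. Above both other sterols were 13 and below both 3, against 2692 and 3771 of all 7902 members. Past 2-fold higher was 1, against 3.72% of all members. Fn1, which encodes fibronectin, read 593, 936 and 1890 FPKM against 916 to 961 in wild type, with a log2 difference of 1.34 (SE 0.33, adjusted p = 0.054 over rows of at least 300 nt). Fbn1, the microfibril protein fibrillin, read 23.8, 17.2 and 47.8 FPKM against 23.7 to 24.9. Collagens had a median of 0.23 over 13 members, with 6 above both other sterols and 1 below, and -0.03 against members of like length, their transcripts having a median length of 6450 nt. Col5a2 read 128, 184 and 314 FPKM and Col6a3 25.7, 7.84 and 46.6 FPKM, against about equal values of 366 to 368 and 31.2 to 36.5 in wild type. Lox, which crosslinks collagen, read 410, 423 and 771 FPKM against 1053 to 1117. Of these genes only Fbn1 and Lox passed the limma test over rows of at least 300 nt, at adjusted p of 0.048 and 0.043.

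Metalloproteinase genes and contractile genes held members on both sides. Timp2 read 934, 1053 and 433 FPKM against 426 to 476 in wild type, and Mmp2 73.5, 94.3 and 50.8 FPKM against 157 to 248. Adamts1, a protease of proteoglycans, read 7.05, 15.9 and 25.4 FPKM against 29.1 to 35.1. Actb, which encodes beta-actin, read 36740, 42000 and 12710 FPKM against 9648 to 11590, and Cald1, the actin-binding caldesmon, read 3196, 4601 and 1087 FPKM against 506 to 578. Myh10, a nonmuscle myosin heavy chain, read 27.3, 23.8 and 64.4 FPKM against 40.3 to 46.6. Over the 22 contractile members 1 was past 2-fold higher and 3 lower, near the 3.72% and 10.8% of all members, with a median of -0.10.

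**Figure D5:**
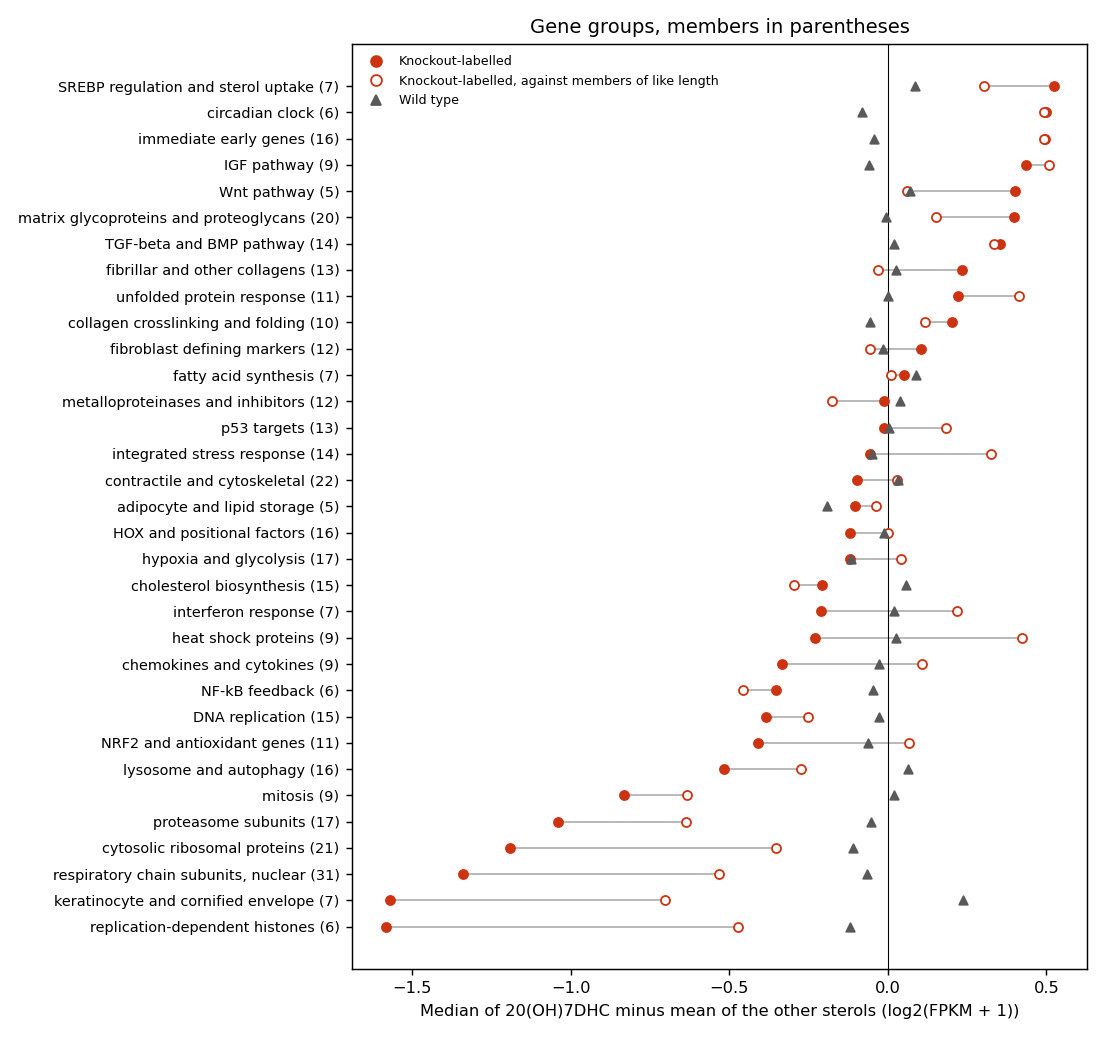
Median difference of the 20(OH)7DHC library from the mean of the other sterols (log2(FPKM + 1)) for each gene group with at least 5 members. Filled circles are knockout-labelled, open circles the same against members of like length and triangles wild type. Respiratory chain subunits move from -1.34 to -0.53 and collagens from 0.23 to -0.03 when length is taken into account.

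Genes of sterol metabolism, which respond to cell sterols, had medians that moved with the library they were set against. Of 15 cholesterol biosynthesis genes 2 were past 2-fold lower and 0 higher, against 10.8% and 3.72% of all members. The median of these genes was -0.21, and -0.30 against members of like length. Without the knockout-labelled 20(OH)L3 library that median was -0.64, and without the 20(OH)Cholesterol library it was 0.13, so its sign rests on a single library. Mvk, mevalonate kinase, read 61.8, 63.1 and 28.7 FPKM against 24.2 to 30.5 in wild type, and Pmvk, the next kinase of the pathway, read 18.7, 27.4 and 7.05 FPKM against 6.04 to 6.42. Among 7 genes of SREBP regulation and sterol uptake the median was 0.52, with none past 2-fold, and 0.15 without the 20(OH)L3 and 0.74 without the 20(OH)Cholesterol library. Insig2, which holds SREBP in the endoplasmic reticulum, read 15.4, 13.9 and 31.5 FPKM in the knockout-labelled cells and 24.2, 22.5 and 36.0 FPKM in wild type, the highest with 20(OH)7DHC in both. Fatty acid synthesis genes had a median of 0.05 over 7 members, and -0.02 without the 20(OH)L3 library. Over 4 liver X receptor targets it was -0.29, 0.06 against members of like length and 0.15 without the 20(OH)Cholesterol library.

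Stress and early response genes gave medians on both sides. The 16 immediate early genes had a median of 0.49, the same against members of like length and 0.25 without the 20(OH)L3 library. Above both other sterols were 11 and below both 4, against 2692 and 3771 of all 7902 members. Past 2-fold higher was 1. Nr4a1, an orphan nuclear receptor of this class, read 11.2, 22.9 and 47.3 FPKM against 101 to 148 in wild type, and Jun read 18.5, 21.3 and 35.0 FPKM against 75.4 to 108. Vegfa, the vascular growth factor, read 46.4, 44.4 and 117 FPKM against 129 to 174. Gclc, of glutathione synthesis, read 4.88, 6.07 and 16.7 FPKM against 7.31 to 9.05, while Gpx4, a lipid peroxide reductase of 995 nt, read 343, 262 and 105 FPKM against 88.5 to 109. Wnt5a, a Wnt ligand, read 17.7, 27.1 and 66.0 FPKM against 53.1 to 67.2. Other groups of this kind had few members past 2-fold, with medians of 0.22 for the unfolded protein response, -0.06 for the integrated stress response (-0.44 and 0.25 without either library), -0.23 for heat shock proteins and -0.01 for p53 targets. By limma over all rows no member of any listed group passed, and over rows of at least 300 nt those that did were mostly in the respiratory chain, ribosome and proteasome groups. Vegfa, Nr4a1 and Wnt5a with 20(OH)7DHC were nearer to wild type than with the other sterols.

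The difference between the 20(OH)7DHC library and the others was then compared between the labelled genotypes. Spearman's correlation between the knockout-labelled and the wild-type difference across members was 0.203. In the fit of the difference between genotypes 39 members passed, a smaller share than the 0.608% of all rows, and 37 of these were under 300 nt. The others were Fbxw7, at a log2 difference of differences of 5.08 (SE 0.26, limma adjusted p = 0.0276), and 1810049J17Rik at 3.45 (limma adjusted p = 0.0437). Over rows of at least 300 nt 0 members passed this test, with 1626 at an unadjusted p under 0.05. In wild type 8 members passed, 7 of them under 300 nt, against 0.371% of rows. Predicted loci, clones and genes under 300 nt were left out of the following ranking. Apol7d, Wac, Cnot1 and Fat1 had the next highest differences between genotypes after Fbxw7, each at least 2.53. Saa3, Rpl39l, Ccl2, Ccl7 and Ccl20 had the lowest, from -4.56 to -3.30, and none of these ranked after Fbxw7 passed the test. 1810049J17Rik and Apol7d entered the members only through the knockout-labelled 20(OH)7DHC library, where they had to be high. Saa3 and Ccl20 entered only through the other sterols and had to read lower with 20(OH)7DHC.

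Over both genotypes together, 5 members passed limma for 20(OH)7DHC against the other sterols, all higher, against 0.0710% of rows. They were the short RNAs Gm25357, Mir7027, Mir6944 and Gm26175 and the predicted locus Gm26457, all listed at 0 in the 4 libraries without 20(OH)7DHC. Gm25357 and Mir7027, both 72 nt long, read 377 and 188 FPKM in the knockout-labelled 20(OH)7DHC library, a ratio of 2.00, so such values are steps of few fragments. Among members of at least 300 nt none passed, also when the fit held only rows of that length, where 616 members had an unadjusted p under 0.05. Axin1, the scaffold of the complex that degrades beta-catenin, read 12.6, 11.3 and 32.2 FPKM in the knockout-labelled cells and 14.2, 15.1 and 30.9 FPKM in wild type. Arhgap21 read 7.18, 8.28 and 17.9 FPKM and 7.93, 8.03 and 18.5 FPKM. In both genes each 20(OH)7DHC library stood above all 4 others, by log2 differences of 1.20 (SE 0.17) and 1.12 (SE 0.16), each with a limma adjusted p of 0.438. Cox7a1, a muscle form of a cytochrome oxidase subunit, read 20.9, 20.4 and 2.76 FPKM and 5.43, 4.02 and 1.20 FPKM, the lowest with 20(OH)7DHC in each genotype, at -1.95 (limma adjusted p = 0.574). These genes were chosen after their values were seen. Cox7a1 was under 5 FPKM with 20(OH)7DHC in the knockout-labelled cells. It entered the members only through the other sterols and had to read lower there. Its transcript of 485 nt falls in the length class with a median of -1.14 in those cells. Its knockout-labelled difference was -2.52, and -1.37 against members of like length.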

How the data were processed

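Messenger RNA was measured in 6 libraries of mouse dermal fibroblasts, grouped by the labels' genotype and treatment. Each deposited value is an FPKM for 1 gene and library, per the file headers, and STAR 2.5.4b, Cufflinks 2.2.1, Cuffdiff and GRCm38 are named in the submitters' processing notes. The sources used here do not state the annotation, the strand setting or the treatment of multiply mapped reads. Rows merging several symbols (1061) were left out of the members. Transcript lengths, each that of the longest annotated transcript of a gene, and coordinates came from GENCODE M21 on GRCm38.

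From FPKM, log2(FPKM + 1) was computed. limma 3.58.1 in R 4.3.3, with a prior variance that follows intensity, fitted genotype by 20(OH)7DHC over all 6 libraries (2 residual degrees of freedom, 12673 rows averaging 1 FPKM or more, 2-sided, Benjamini-Hochberg at 0.05), so the lone 20(OH)7DHC library of each genotype is assumed to vary like the others. A second fit took genotype and 20(OH)7DHC as additive terms (3 residual degrees of freedom). The limma fit of genotype by 20(OH)7DHC was tested on simulated tables of independent normal noise, which held no length trend and no library effect. That test covered this fit alone. Depth was estimated from the step of low values, 97.1% to 98.2% of which were whole multiples within 0.05 against 10% by chance. It describes counting error only, and no count test was run.

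Members and gene lists were chosen with earlier results of these data known. Genes named are the 12 higher and 12 lower at least 1 log2 unit past both other knockout-labelled libraries with the largest difference, the 5 highest and 5 lowest between genotypes, up to 4 per list, those just inside and outside the minimum, and the 5 smallest p over both genotypes. The named members of the first 2 kinds exclude predicted loci, repeated symbols and transcripts under 300 nt. Alternatives were other pseudocounts, filters, rows, scalings, priors, removal of the length trend and leaving out libraries. A check of the targeted transcript is not reported here.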

Additional observations from a re-analysis of the deposited data

Results flagged for a closer look

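The difference between 20(OH)7DHC and the other sterols itself differed between the labelled genotypes for 39 members by limma, 37 of them RNAs under 300 nt. Of the remaining members, Fbxw7 differed by 5.08 on the log2 scale (adjusted p = 0.0276), with 331 FPKM in the knockout-labelled 20(OH)7DHC library and at most 9.63 FPKM in the other 5. 1810049J17Rik differed by 3.45 (adjusted p = 0.0437), with 45.2 FPKM in that library, 34.5 to 34.6 FPKM in wild type and 2.97 and 3.48 FPKM in the other knockout-labelled libraries. Each rests on a single library per sterol, and whether the sterol or the library made the difference cannot be told apart. The mean of 1810049J17Rik with the other sterols was under 5 FPKM. It entered the members only through the knockout-labelled 20(OH)7DHC library, where it had to be high, so its difference is no support by itself.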

How the results depend on the processing

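The 2-fold counts (294 higher, 853 lower) were 119 and 230 at 1.5 log2 units, 369 and 454 after quantile normalization, and 231 and 342 against members of like length. The median of transcripts under 1000 nt (-1.14) was -0.82 after quantile normalization, -1.31 for protein-coding rows and -1.26 to -1.01 leaving out either knockout-labelled library. The limma calls in the knockout-labelled cells (45 higher, 10 lower) were 102 and 185 with no filter, 228 and 731 for rows of at least 300 nt, 252 and 787 for protein-coding rows, 137 and 389 with a robust prior, and 0 and 0 for the knockout-labelled libraries alone. They were 70 higher after quantile normalization, and 19 lower with a pseudocount of 0.1 or a mean of at least 5 FPKM, 22 lower with the length trend removed and 6 lower with no intensity trend. Leaving out 1 library gave 0 to 45 higher and 0 to 25 lower. The wild-type calls (6 and 2) were 0 and 0 for rows of at least 300 nt and for protein-coding rows, and 0 to 6 and 0 to 2 leaving out 1 library. The calls between genotypes (35 and 4) were 0 and 0 for rows of at least 300 nt, 2 and 0 for protein-coding rows, 23 and 1 after quantile normalization, 21 and 2 with a robust prior, 23 higher at a mean of at least 5 FPKM, 40 lower with no filter, and 0 leaving out any of the 4 libraries of the other sterols. Those over both genotypes (5 and 0) were 0 higher for rows of at least 300 nt and for protein-coding rows, and 4 to 44 higher and 0 to 13 lower leaving out 1 library, the most without the wild-type 20(OH)7DHC library. Of 554 values of 34 named genes, 486 kept direction and side of the threshold, 14 lost the call, 54 gained it and 0 reversed. Of 35 list medians 13 changed sign against members of like length and 10 without one of the other knockout-labelled libraries. The cause of these changes was not tested. No paired analysis was possible because each genotype and sterol has 1 library and no replicate number. Lower depth in the knockout-labelled 20(OH)L3 and 20(OH)Cholesterol libraries limits the values of low genes there.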

Other observations

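Groups not described above moved as follows. Genes of the TGF-beta and BMP pathway had a median log2 difference of 0.36 over 14 members, 0.34 against members of like length and 0.17 without the 20(OH)Cholesterol library, with 0 past 2-fold. Ltbp2, which binds latent TGF-beta, read 70.6, 123 and 244 FPKM in the knockout-labelled libraries of 20(OH)L3, then 20(OH)Cholesterol, then 20(OH)7DHC, against 868 to 1059 in wild type. Smad4, the shared signal transducer of the pathway, read 25.02, 15.9 and 48.7 FPKM against 27.7 to 34.8, and Tgfb1, a ligand, read 109, 171 and 61.1 FPKM against 60.6 to 70.4, so ligand and transducer lay on opposite sides. The 9 IGF pathway members had a median of 0.44 and the 6 circadian clock members one of 0.50, with no member of either past 2-fold, and the IGF median was 0.03 without the 20(OH)Cholesterol library. Lysosome and autophagy genes had a median of -0.52 over 16 members, with 1 past 2-fold lower, and Npc1 and Npc2, which pass cholesterol out of the lysosome, read 19.5 and 160 FPKM with 20(OH)7DHC, above and below both other sterols.

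Of 16 HOX and positional factors 5 were above both other sterols and 6 below, against 2692 and 3771 of all 7902 members. Their median was -0.12, and 0.00064 against members of like length. Tbx15, a T-box factor of the dermis, read 76.5, 77.9 and 31.2 FPKM against 10.3 to 11.2 in wild type, and Hoxc9 read 16.5, 32.9 and 7.18 FPKM against 10.7 to 12.8, while Hoxb3 read 5.52, 3.96 and 10.06 FPKM against 4.39 to 5.98. Pparg, the regulator of fat cell formation, read 7.30, 2.30 and 12.3 FPKM against 0.304 to 0.581, and Mcam, a pericyte marker, 69.9, 42.4 and 108 FPKM against 10.2 to 13.2. For Pparg and Mcam the knockout-labelled 20(OH)7DHC library was the farthest of the 6 from wild type.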
